A study of Mus musculus with 4 samples.

Results

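The genes described here are 43 regulators of the cell division cycle in mouse: cyclins, cyclin-dependent kinases (CDKs), the inhibitors of these kinases, the CDC25 phosphatases, and the E2F transcription factors with their pocket-protein partners. They are set by a list of names, with no measured value in the rule, and all 43 were found among the 50600 genes listed in the files. RNA was sequenced from T-helper 17 (Th17) cells of strain C57BL/6NJ, a CD4+ T-cell lineage that secretes interleukin 17, obtained here by a protocol that differentiates CD4+ T cells. There was 1 group of 4 libraries, numbered as biological replicates 1 to 4, with no treatment or genotype to compare, no age given and 1 shared donor record for all 4. The names in the file headers add the terms 72hr and Sorted for each library. The comparisons are therefore between genes within a library and between the 4 libraries, and any p covers only how these 4 libraries vary.

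A cyclin binds a CDK and switches its kinase activity on. In the textbook order, D-type cyclins with CDK4 and CDK6 start the phosphorylation of the retinoblastoma family of pocket proteins, which releases E2F factors to transcribe the genes of DNA replication. Cyclin E and cyclin A with CDK2 then drive S phase, and cyclin A and cyclin B with CDK1 drive mitosis. The CIP/KIP and INK4 proteins inhibit these kinases. Activated T cells divide fast, and the D-type cyclins of lymphocytes are known to be mainly D2 and D3.

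The promoters of genes that are switched on late in the cycle are known for 2 elements, the CHR (cell cycle genes homology region), which is bound by the DREAM and MuvB complexes, and the CCAAT box, which is bound by NF-Y. Genes of the G1/S transition are known for E2F sites. RefSeq windows from 250 bases before to 50 bases after a transcript start (GRCm38.p6) were matched by symbol to 32 of the 43 members, in 40 windows. The members without one are Ccna2, Ccnd1, Ccnd2, Ccne2, Ccnh, Cdkn1c, Cdc25c, E2f4, E2f5, Rb1 and Wee1. The 250 bases before the start of 3 members of the G2/M list and 2 of the G1/S list are shown, as examples of where these letters lie. They lie at chr9:70421555-70421804, minus strand (Ccnb2), chr17:24251410-24251659, minus strand (Ccnf), chr10:69352913-69353162, minus strand (Cdk1), chr9:109875329-109875578, plus strand (Cdc25a) and chr2:157204535-157204784, minus strand (Rbl1). Each is written 5′ to 3′ in the direction of transcription, with CCAAT boxes (CCAAT or its reverse ATTGG), CHR letters (TTTGAA or TTCGAA, and the reverse) and E2F letters in capitals.
Ccnb2: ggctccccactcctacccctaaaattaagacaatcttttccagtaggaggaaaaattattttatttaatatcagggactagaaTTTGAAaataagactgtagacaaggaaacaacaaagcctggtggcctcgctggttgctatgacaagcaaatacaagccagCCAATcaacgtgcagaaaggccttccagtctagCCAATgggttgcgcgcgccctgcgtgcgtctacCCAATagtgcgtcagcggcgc
Ccnf: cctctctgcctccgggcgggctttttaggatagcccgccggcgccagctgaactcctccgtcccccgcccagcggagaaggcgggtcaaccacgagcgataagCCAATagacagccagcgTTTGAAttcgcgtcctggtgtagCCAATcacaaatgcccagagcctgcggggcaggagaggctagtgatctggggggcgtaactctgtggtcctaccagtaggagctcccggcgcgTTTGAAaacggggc
Cdk1: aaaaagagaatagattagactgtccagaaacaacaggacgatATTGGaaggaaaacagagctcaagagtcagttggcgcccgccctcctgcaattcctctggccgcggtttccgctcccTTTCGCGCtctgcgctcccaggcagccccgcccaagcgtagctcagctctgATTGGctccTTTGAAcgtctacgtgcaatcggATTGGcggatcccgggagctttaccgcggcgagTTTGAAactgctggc
Cdc25a: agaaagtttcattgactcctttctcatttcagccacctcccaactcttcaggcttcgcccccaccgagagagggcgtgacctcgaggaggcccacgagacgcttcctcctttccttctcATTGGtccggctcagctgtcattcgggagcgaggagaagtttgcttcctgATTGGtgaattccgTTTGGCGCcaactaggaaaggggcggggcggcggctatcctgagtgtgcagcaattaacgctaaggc
Rbl1: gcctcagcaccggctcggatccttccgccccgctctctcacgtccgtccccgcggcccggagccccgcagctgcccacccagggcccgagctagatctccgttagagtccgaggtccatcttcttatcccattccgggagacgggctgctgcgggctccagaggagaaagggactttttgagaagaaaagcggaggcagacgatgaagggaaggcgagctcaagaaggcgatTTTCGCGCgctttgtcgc

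Of the 8 members on the G2/M list, 6 had a window, and a CCAAT box was found in all 6 and CHR letters in 5. Among 21262 windows of protein-coding genes, 38.2% held a CCAAT box and 17.6% held CHR letters on either strand. The G1/S list also held them, with a CCAAT box in 6 of 10 windows and CHR letters in 3 of 10. Cdk1, the mitotic kinase gene, held CHR letters at -71 and -15 (the first base of the match, counted from the start at 0) and CCAAT boxes at -208, -80 and -48. Ccnb2, for cyclin B2, held CCAAT boxes at -87, -54 and -21, and CHR letters at -167 and at 4. Ccnf, for cyclin F, held CHR letters at -130 and -14 and CCAAT boxes at -147 and -107. Cdc25b held CHR letters only at 7, after the start, and a CCAAT box at -28. In Cdkn3 the only CHR letters lay at -111 in the reverse direction, with CCAAT boxes at -149, -92, -34 and 9. Ccnb1 was the G2/M member with a window but without TTTGAA or TTCGAA, the only CHR letters searched. Its CCAAT boxes lay at -99 and -67. The letters TTTCCCGC, TTTCGCGC, TTTGCCGC or TTTGGCGC of an E2F site were searched on either strand. They were found in 10 of the 40 member windows (25%), against 2.85% of the protein-coding windows. On the G1/S list 4 of 10 windows held them, in Cdc25a at -67, Rbl1 at -18, E2f7 at -198 and 1 of the windows of E2f2 at 39. Outside that list the letters stood in Cdk1 at -131, Cdk2 at -140, 1 window each of E2f3 (-11) and Cdkn2a (-99), and in Tfdp1, whose windows overlap and share 1 match. A RefSeq window can lie wholly inside the gene as annotated for the counts. On the G1/S list this held for the only E2f1 window and 1 window each of E2f2 and Skp2. The E2f1 window, without E2F, CHR or CCAAT letters, ended at 154569676, while the minus-strand gene begins at 154569892. The E2f2 window began at 136180532 and the gene at 136172394. The CHR letters and CCAAT boxes of that window are counted above. Windows of other members, such as Ccnd3, also lay inside. The GC box GGGCGG and the letters TATAAA were also searched on either strand. The GC box was found in 33 of 40 member windows and in 46.2% of the protein-coding ones, and TATAAA in 1 of 40, that of Cdk6, and in 12.6%. Matches of different motifs overlapped in 1 place, a CCAAT box at 20 and a GC box at 23 in a window of Cdkn2a, and GC boxes overlapped each other in a few windows. A match describes letters in a window and not a bound site, and differences in base composition between windows were not removed.

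**Figure D1:**
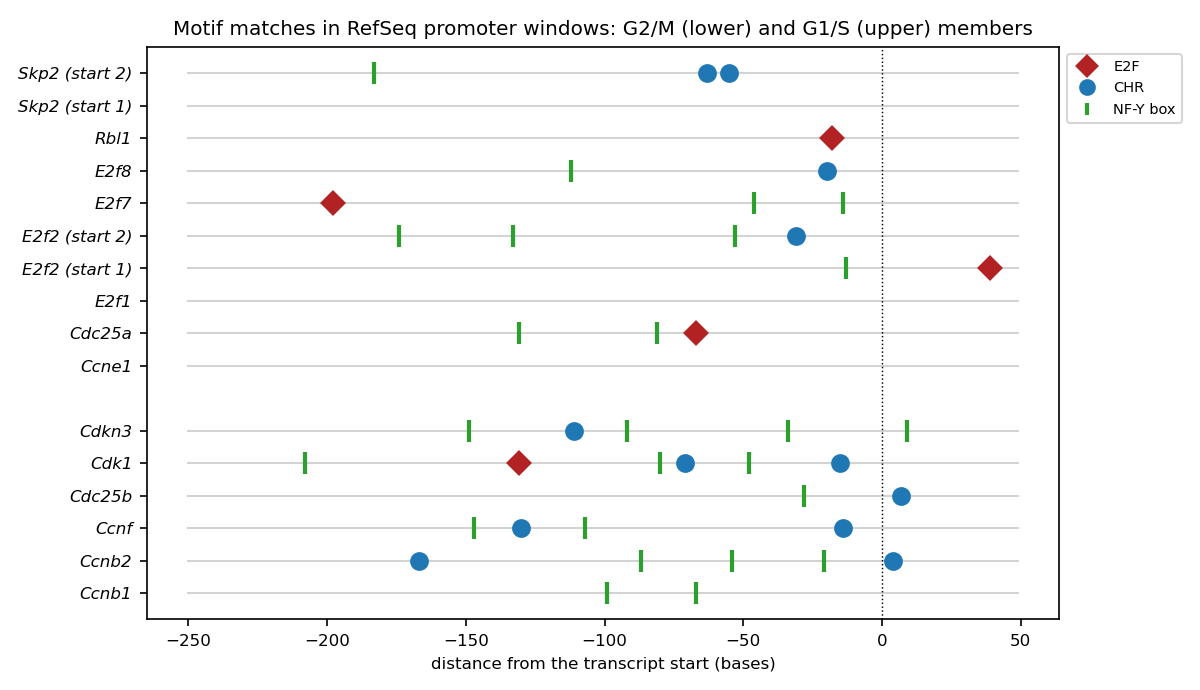
Position of E2F, CHR and CCAAT (NF-Y box) letters in RefSeq promoter windows of the G2/M members (6 lower rows) and the G1/S members (10 upper rows), as distance from the transcript start in bases; each grey line is 1 window. The NF-Y box appears in every G2/M row and CHR letters in 5 of the 6, while E2F letters are in 4 of the 10 G1/S rows and 1 G2/M row. The G1/S rows include windows that lie inside the genes E2f1, E2f2 and Skp2.

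Totals ran from 9382661 counts in replicate 3 to 34542693 in replicate 1, a 3.68-fold range, and the 43 members took between 0.558% and 0.581% of them. All 9 T-cell marker genes and all 7 Th17 marker genes had at least 1 TPM (counts scaled by exonic length and library total) in every library, with Il17a and Il17f the highest of the Th17 markers. Of the defining markers of other cells, Ms4a1, Fcgr1, H2-Aa, Ncr1 and Klrb1c had 0 counts, and the B-cell, macrophage, dendritic, natural killer and erythroid marker lists had medians of at most 0.135 TPM. Single markers stood above their lists: Ebf1 at 6.87 ± 1.38, Cd68 at 6.08 ± 1.66, H2-Ab1 at 30.3 ± 21.8, Nkg7 at 8.82 ± 3.00 and Cd8b1 at 13.4 ± 1.96 TPM, beside Cd8a at 4 counts over the 4 libraries. The libraries also stood apart by sex-linked genes, which the labels do not give: TPM of Xist were 177, 193, 2.15 and 0.598 in library order, and those of Ddx3y, on the Y chromosome, 0.165, 0.133, 59.7 and 55.2. Replicates 1 and 2 therefore differ from 3 and 4 in more than technical spread, although the labels give 1 donor record, while within each of these pairs the spread may be technical.

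As a set the members were abundant. At least 1 TPM in every library was reached by 38 of 43 members (88.4%), against 10367 of 21764 protein-coding genes (47.6%). The median member had 54.1 ± 1.16 TPM and the median protein-coding gene 0.804 ± 0.0844 TPM (SD, n = 4). Cdkn1a, for the CDK inhibitor p21, had the highest mean with exonic lengths, followed by Ccng1, for cyclin G1, Cdk4, and E2f4, but Cdkn1a was above Ccng1 in 3 of 4 libraries only, a step within the spread. The 5 members below 1 TPM were Cdkn1c, Ccnd1, Cdkn2b, Cdkn2a and Ccna1. Levels are TPM computed from counts and the exonic length in the files, averaged over all cells of a bulk sample, in which fewer cells of a type and less RNA per cell cannot be told apart. Of the 42 steps between neighbours in the order of mean TPM, 15 exceeded the spread between libraries (the same sign in 4 of 4 libraries and a mean difference above its SD) and 27 did not. The order also depends on the length used for a gene. With the longest protein-coding transcript in place of all exons, an alternative added after the values were seen, 6 of the 38 members above 1 TPM moved by over 1.5-fold relative to the main value, from 0.288 times for Cdkn3 to 3.02 times for Ccnd3. With the median length of those transcripts 23 members moved that far, from 0.245 to 9.14 times. These factors include a rescaling shared by all genes, since TPM were computed anew over all genes for each length. Wee1, with 3419 bases in each setting, still moved to 0.726 times with the longest and 0.455 times with the median transcript. The 6 and the 23 are therefore not counts of members that changed place. The order at the top did turn. With the longest transcript Ccnd3 (454 TPM) was above Cdkn1a (409 TPM) and Cdk4 (371 TPM) above Ccng1 (323 TPM). With the median length Ccnd2 was the highest (1194 TPM).

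**Figure D2:**
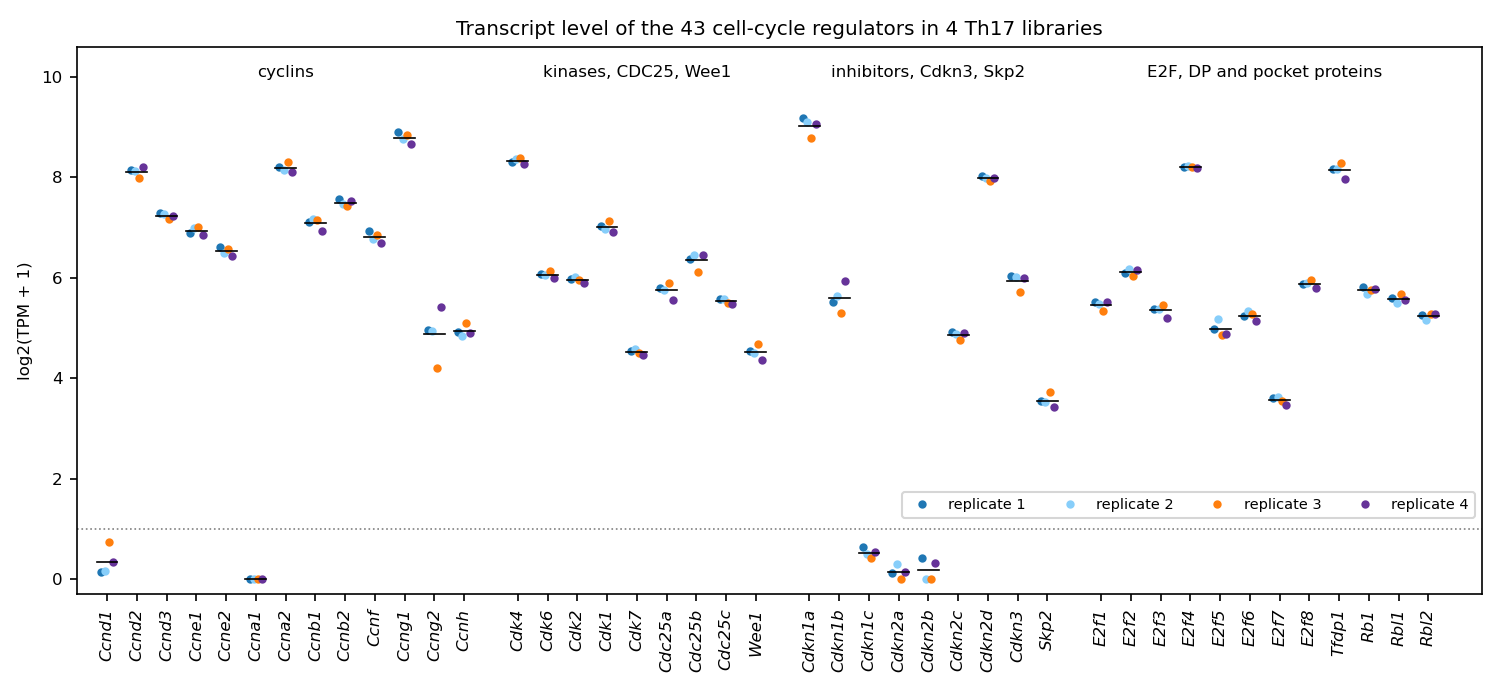
Level of each of the 43 members as log2(TPM + 1), 1 point per library and a black bar at the mean of 4, in blocks of cyclins, kinases with CDC25 and Wee1, inhibitors with Cdkn3 and Skp2, and E2F, DP and pocket proteins; the dotted line marks 1 TPM. Ccnd1, Ccna1, Cdkn1c, Cdkn2a and Cdkn2b lie below the line, and Ccng2 has the widest gap between libraries of the members above it.

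Among the D-type cyclins, which couple growth signals to the cycle, Ccnd2 and Ccnd3 were abundant and Ccnd1 was near the floor of detection. Ccnd2 (ENSMUSG00000000184.12, chromosome 6, positions 127125162 to 127152193, minus strand, mm10) had 283, 277, 254 and 294 TPM, in the order of replicates 1 to 4 used throughout. Ccnd3 had 155, 154, 144 and 148 TPM, and each of its values was below every value of Ccnd2. Ccnd2 took 64.7% ± 1.18 of the summed TPM of the family (SD, n = 4) and exceeded Ccnd3 by 0.88 ± 0.0742 on the log2(TPM + 1) scale. That order turned with the transcript length: Ccnd3 has 8775 exonic bases but a longest protein-coding transcript of 2113, and with the latter Ccnd2 minus Ccnd3 was -0.60. Ccnd1 held 5, 4, 9 and 11 counts, or 0.101, 0.117, 0.671 and 0.266 TPM. The highest TPM was in the shallowest library, where 9 counts allow 0.307 to 1.27 TPM (95%, exact Poisson, counting error only). At 7.77 ± 0.351 log2 units, the gap to Ccnd2 was wide in every library.

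The cyclins of S phase and mitosis were led by Ccna2, which serves both phases, at 293, 283, 315 and 273 TPM. Ccna1, its germ-line relative, had 0 counts in each library, where 3 counts correspond to 0.156 TPM at the depth of replicate 1 and 0.574 at that of replicate 3. Ccne1, for cyclin E1, had 118, 127, 129 and 114 TPM, and Ccne2 had 96.6, 89.0, 94.5 and 85.5 TPM. Every library gave Ccne1 the larger value, by 0.41 ± 0.0934 log2 units. On CPM (counts scaled to the library total, with no length correction) that difference was 0.023, within its SD of 0.0933, and with the median transcript length 1.21, so its size rests on the length used. Ccnb1 had 138, 143, 142 and 122 TPM and Ccnb2 189, 177, 172 and 183 TPM, so that Ccnb2 took 57.0% ± 2.48 of the B-type total. That order is uncertain. Of the 50-base stretches of Ccnb1 transcripts, 23.4% also occur in other genes such as Ccnb1-ps. The authors' counting left out reads that map to several places, and how many read pairs of Ccnb1 this took was not tested. Without those stretches in the length of Ccnb1, Ccnb2 took 50.4%. Ccnb1 minus Ccnb2 was -0.40 ± 0.145 log2 units with exonic lengths, 0.35 with the longest transcript and 1.05 on CPM. Ccnf, whose product is the substrate receptor of a ubiquitin ligase and binds no CDK, had 112 ± 7.63 TPM (SD, n = 4).

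The G cyclins, which are not known to drive the cycle, differed from each other more than most pairs. Ccng1, a p53 target gene, had 481, 434, 458 and 404 TPM. Ccng2 (ENSMUSG00000029385.14, chromosome 5, positions 93267257 to 93276231, plus strand, mm10), a target of FOXO factors that is known to be high in cells that stop dividing, had 30.1, 29.9, 17.5 and 42.0 TPM. Replicate 3 was the lowest and replicate 4 the highest for Ccng2, with replicates 1 and 2 close together between them. The pair differed by 3.91 ± 0.572 log2 units, and the large SD comes from Ccng2. Ccnh and Cdk7, which with Mnat1 form the kinase that activates other CDKs, had 29.9 ± 2.36 and 22.0 ± 0.831 TPM (SD, n = 4).

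Cdk4 was the highest of the 5 CDK genes, with 318, 329.9, 334 and 307 TPM. Cdk6, its partner in G1, had 66.3, 65.5, 69.1 and 63.2 TPM. All values of Cdk4 were above those of Cdk6, and Cdk4 took 83.0% ± 0.306 of the pair. This share was steady between libraries but not between lengths: it was 86.4% with the longest transcript, 53.1% with no length correction, and 42.6% with the median of its protein-coding transcripts, where Cdk6 gets 697 bases in place of 13989. Cdk1 had 130.3, 125, 139.9 and 119 TPM and Cdk2 61.9, 63.8, 60.8 and 58.2 TPM, a difference of 1.06 ± 0.0971 log2 units. With the longest transcripts that difference was -0.13, so the order of Cdk1 and Cdk2 is uncertain.

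**Figure D3:**
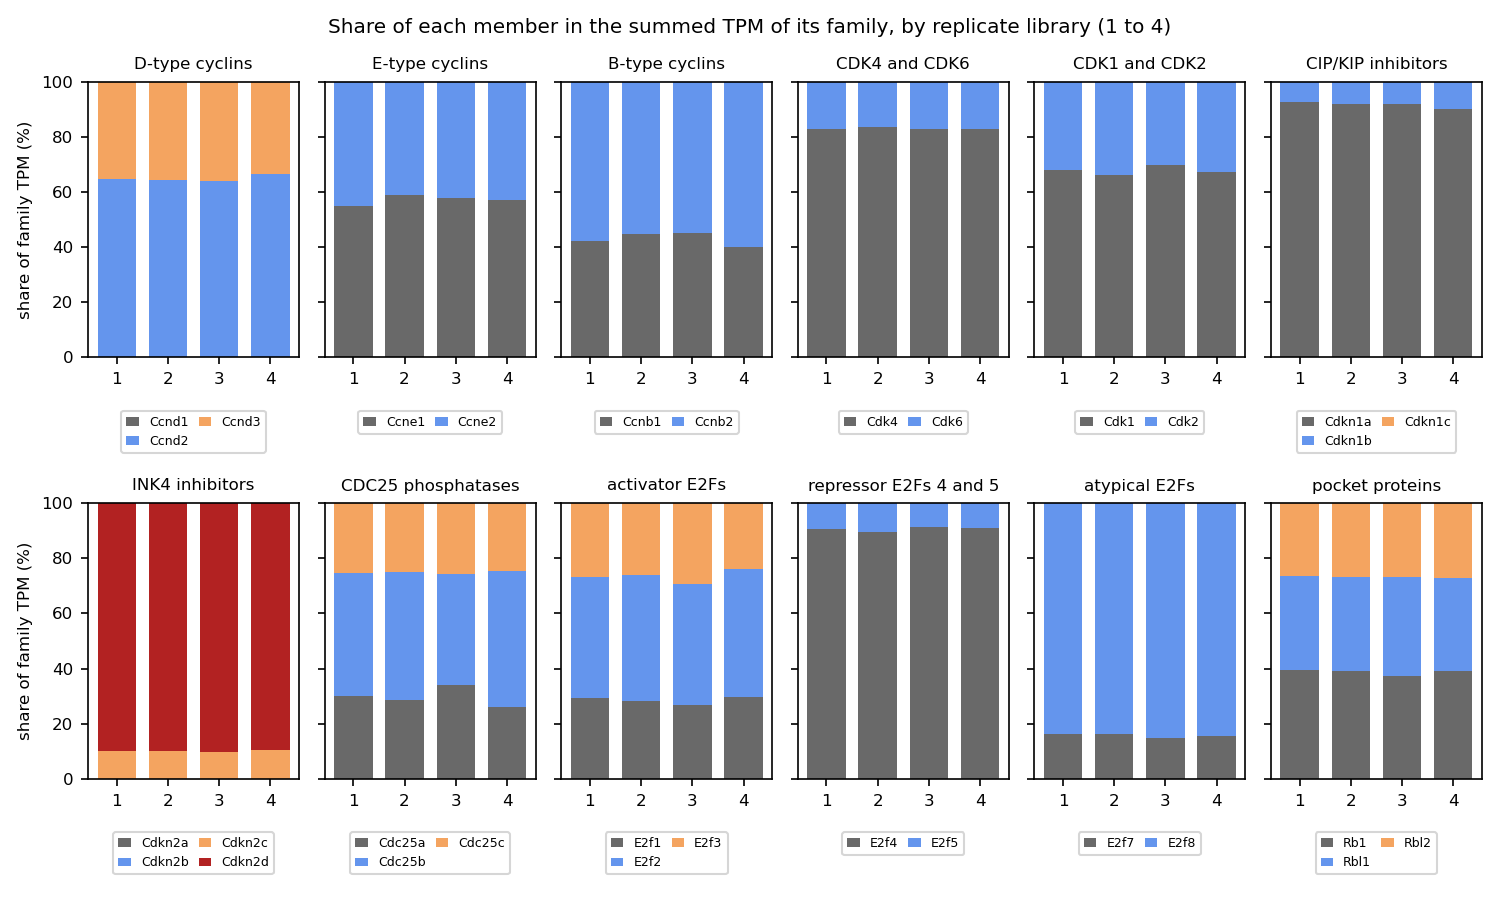
Share of each member in the summed TPM of its family (bars stacked to 100%) in replicates 1 to 4, for 12 families with 2 or more members; the A-type cyclins, where Ccna2 takes all counts, are not drawn. Cdk4, Cdkn1a, Cdkn2d, E2f4 and E2f8 each take over 80% in every library, and the SD of a share between libraries is at most 3.77 percentage points.

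The phosphatases and the kinase that set CDK activity through inhibitory phosphate were of middle abundance. Cdc25b, which acts at the entry to mitosis, had 82.2, 86.4, 68.8 and 86.9 TPM, lowest in replicate 3. Cdc25a, which acts in G1/S and later, had 55.0, 53.3, 58.7 and 46.4 TPM, lowest in replicate 4 and highest in replicate 3. Cdc25a was below Cdc25b in each library, by -0.59 ± 0.278 log2 units, but the sign turned to 0.27 with the longest transcript and 0.50 on CPM. Cdc25c had 45.3 ± 1.61 TPM. Wee1, the kinase that opposes CDC25, had 22.0 ± 2.04 TPM (SD, n = 4). Cdkn3, for a phosphatase that acts on CDKs, had 64.9, 63.9, 51.7 and 63.0 TPM, with replicate 3 apart from the other 3 libraries. Its exonic length in the files is 773 bases and the longest transcript of the later annotation 1952, with which its mean was 17.5 TPM. Skp2, the ubiquitin ligase subunit that leads p27 to degradation, was at 10.8 ± 0.987 TPM.

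The inhibitors were dominated by 1 gene in each family. Cdkn1a (ENSMUSG00000023067.13, chromosome 17, positions 29090979 to 29100722, plus strand, mm10), a p53 target, had 578, 548, 443 and 537 TPM, lowest in replicate 3. Cdkn1b, for p27, the CIP/KIP inhibitor that is known to hold resting T cells, had 45.1, 48.7, 38.6 and 60.0 TPM, with the lowest value again in replicate 3 and the highest in replicate 4. Cdkn1a took 91.6% ± 1.19 of the CIP/KIP total, and Cdkn1b minus Cdkn1a was -3.44 ± 0.213 log2 units. Cdkn1c, for p57, an imprinted gene, held 28 counts in all (0.440 ± 0.0913 TPM).

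Of the INK4 inhibitors, which block CDK4 and CDK6, Cdkn2d stood at 259, 253, 244 and 254 TPM. Cdkn2c stood at 29.2, 28.6, 26.0 and 28.9 TPM. Cdkn2d took 89.9% ± 0.334 of the family and was above Cdkn2c by 3.12 ± 0.0431 log2 units, with libraries that nearly coincide. Cdkn2a, the locus of p16 and ARF, held 1, 2, 0 and 1 counts, and Cdkn2b, its neighbour for p15, held 5, 0, 0 and 3. At these depths a count of 0 allows 3 counts (1-sided 95% limit), or 0.898 TPM for Cdkn2a in replicate 3. The exact Poisson limit of the kind given for Ccnd1 was 1.10 TPM there. No order between both genes could therefore be read.

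Of the E2F factors, E2f4, a repressor that works with pocket proteins in resting and early cells, was the highest, at 295, 299, 294 and 289.9 TPM, with libraries close together. E2f5 had 30.4, 35.2, 28.2 and 28.4 TPM, and E2f4 took 90.6% ± 0.816 of the pair. The activators E2f1, E2f2 and E2f3 had 43.2 ± 2.45, 68.4 ± 2.76 and 40.1 ± 3.14 TPM (SD, n = 4). E2f2 was above E2f1 in each library, E2f1 minus E2f2 being -0.65 ± 0.0536 log2 units. Of the atypical E2Fs, which are known to shut down E2F targets late in S phase, E2f8 had 58.2 ± 2.82 TPM and E2f7 10.8 ± 0.563, a difference of -2.33 ± 0.0721 log2 units for E2f7 minus E2f8. E2f6, a repressor that binds no pocket protein, had 37.0 ± 2.08 TPM. Tfdp1, for DP1, the partner that E2F1 to E2F6 need to bind DNA, had 285, 285, 311 and 250.2 TPM, and 16.8% of its 50-base stretches also occur in the gene Gm7390; without those stretches in its length the mean of Tfdp1 was 339.9 TPM in place of 283 TPM.

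The pocket proteins stood close together. Rb1 had 55.4, 50.2, 52.8 and 53.9 TPM and Rbl1, for p107, 47.2, 44.0, 50.2 and 46.1 TPM. Rbl2, for p130, had 37.2, 34.6, 38.0 and 37.6 TPM, and it was the lowest of the family in every library with exonic lengths. That place is uncertain: with the median transcript length Rbl2 had 26.5 and Rbl1 26.3 TPM, and on CPM replicate 4 had 86.0 for Rbl2 and 83.7 for Rbl1. Rb1 took 38.8% ± 0.936 of the summed TPM. Rbl1 minus Rb1 was -0.18 ± 0.0710 and Rbl2 minus Rb1 -0.52 ± 0.0407 log2 units (SD, n = 4).

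Over the families, 18 pairs of members were compared with an exact sign-flip permutation test over the 4 libraries, two-sided. In 17 pairs the sign was the same in 4 of 4 libraries, with an exact p = 0.125, or 0.132 after Benjamini-Hochberg adjustment over the 18 pairs. That p is the smallest 4 libraries allow, so no pair could reach 0.05. The test treats the 4 libraries as independent units, although the labels do not tie them to separate animals or cultures. For Cdkn2a minus Cdkn2b the exact p was 0.75. The sign of Ccnd2 minus Ccnd3, Ccnb1 minus Ccnb2, Cdk4 minus Cdk6, Cdk1 minus Cdk2 and Cdc25a minus Cdc25b turned under at least 1 other length setting, and in the other 12 of the 17 the sign of the mean did not.

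The spread between libraries was then set against genes of like abundance (edgeR, quasi-dispersion of each gene over the trend, upper tail). The low-count filter was passed by 12156 genes, among them the 38 members above 1 TPM. With Benjamini-Hochberg adjusted p under 0.05, 0 of 38 members and 1 of 12156 genes (0.00823%) were called, and 2 of 38 members (5.26%) had an unadjusted p under 0.05, against 4.9% of all genes tested, a share near the background. These members were Ccng2 and Cdkn1b. The quasi-dispersion of Ccng2 was 27.8 times the trend (edgeR, adjusted p = 0.453) and that of Cdkn1b 9.29 times (adjusted p = 0.875). Even a ratio as large as that of Ccng2 was not called, so 0 calls do not show that the members vary little between libraries. Without replicate 3 the ratio of Ccng2 was 13.6. Without replicate 4 the ratio of Cdkn1b was 4.01, with an unadjusted p from edgeR of 0.0504, no longer under 0.05. In that setting 3 of 38 members were under 0.05, against 628 of 12145 genes, and 0 members were called. The 3 were Ccng2, Cdkn1a (ratio 7.74, edgeR unadjusted p = 0.00839) and Cdc25b (ratio 5.00, edgeR unadjusted p = 0.0293). The call for Ccng2 depended on the setting. It was called with no filter on low counts (adjusted p = 0.00433, the 1 called of 42 members with a count, beside 0.592% of 21299 genes) and was the 1 member marked as a dispersion outlier by DESeq2 (0.847% of genes), but over the other edgeR settings run its adjusted p lay between 0.0836 (without replicate 4) and 0.808 (without replicate 3). At the other end the quasi-dispersions of Cdkn2d and E2f4 were 0.108 and 0.121 times the trend. Counted from the smallest p they ranked 11558 and 11462 of 12156 genes, and the lower tail was not tested.

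**Figure D4:**
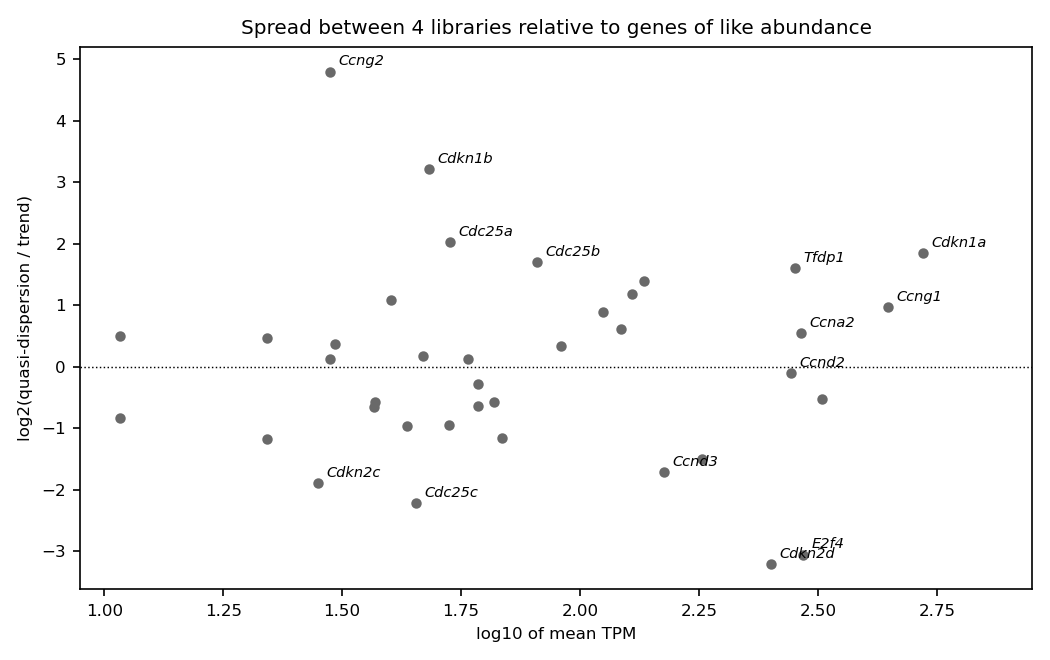
Spread of each of the 38 tested members between 4 libraries, as log2 of its quasi-dispersion over the trend of genes of like abundance, against log10 of its mean TPM; the dotted line marks the trend. Ccng2 and Cdkn1b lie farthest above the line, and Cdkn2d and E2f4 farthest below.

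Replicate 3 or 4 gave the lowest value for 34 of 38 members (89.5%) and the highest for 18 (47.4%), against 67.1% of genes tested for each. On log2(CPM + 1), the median member was -0.10 in replicate 4 and 0.04 in replicate 3 against the average of the remaining 3, beside 0.00 for all genes tested in both. Replicate 4 gave the lowest value for 22 of 38 members (57.9%), against 32.9% of genes tested, and the highest for 3 (7.89%), against 33.2%. The G1/S list, genes that peak as cells enter S phase, was at -0.14 in replicate 4 and 0.13 in replicate 3, with 2 of 9 members higher in replicate 4. Within it Cdc25a was at -0.27 and 0.21, and Skp2 at -0.18 and 0.25, in replicates 4 and 3. The G2/M list was at -0.11 in replicate 4 with 3 of 8 members higher, and at 0.02 in replicate 3 with 4 of 8 higher. Cdk1 and Ccnb1 were at -0.16 and -0.23 in replicate 4, while Cdc25b and Cdkn3 were at 0.13 and 0.05. These departures have no test, since each library is a single sample.

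Replicates 3 and 4 departed in opposite directions for 30 of 38 members (78.9%), against 77% of all genes tested, a share near the background. Low in replicate 4 and high in replicate 3 were 20 of the 38 (52.6%), against 38.1% of genes tested. The opposite course was taken by 10 of the 38 (26.3%), against 38.9%. Among these, Ccng2, Cdkn1b, Cdc25b, Ccnd2 and Cdkn3 had the largest departures in replicate 4. Ccng2 was at 0.71 in replicate 4 and -0.89 in replicate 3. Cdkn1b was at 0.43 and -0.37. Cdkn1a, also an inhibitor, was low in replicate 3 (-0.30) but near the others in replicate 4 (0.03). H2-Ab1, an antigen presentation gene on the dendritic-cell list, took the same course with 22.9, 24.6, 11.8 and 61.8 TPM, and the summed level of that list was lowest in replicate 3 (12.1 TPM) and highest in replicate 4 (62.1 TPM), with 5 of its 6 members below 1 TPM and H2-Aa at 0 counts. Replicate 3 was also the shallowest library. The part of these in the shifts was not tested. By sex-linked genes replicates 3 and 4 fell on the same side, so the contrast between both is one within that side.

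**Figure D5:**
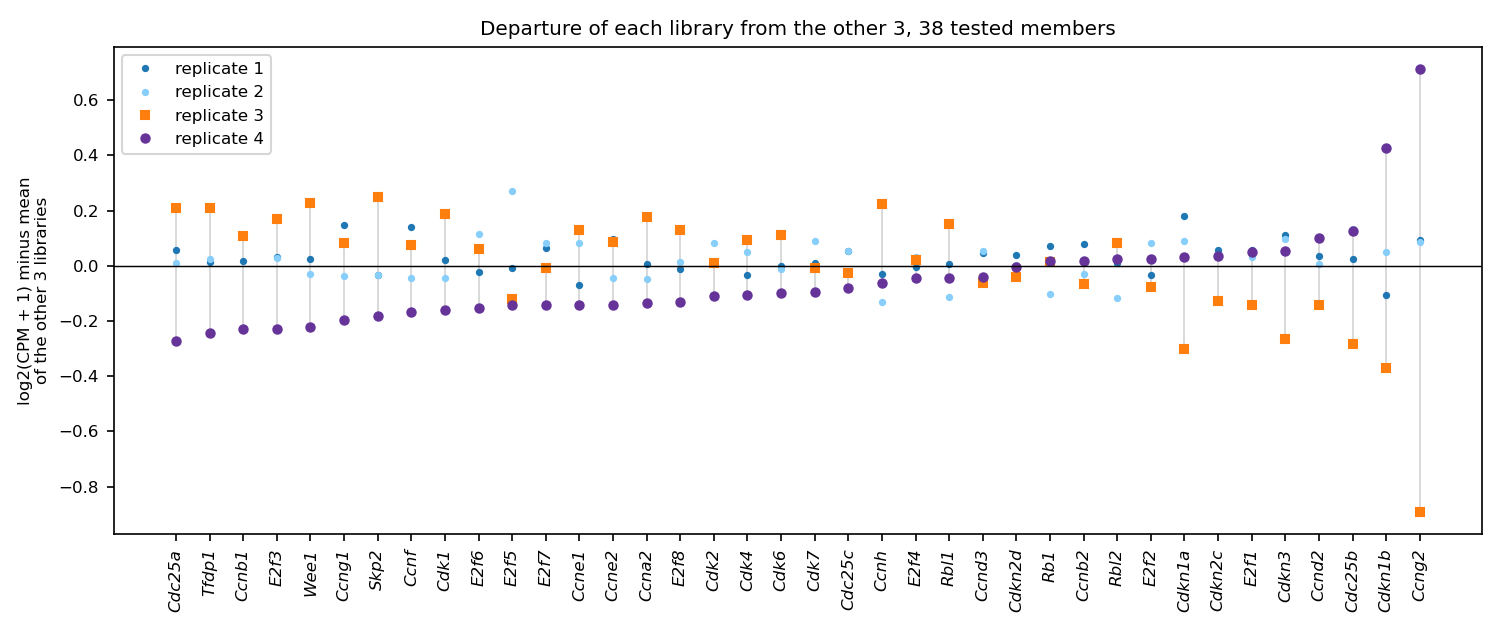
Departure of each library from the mean of the other 3, on log2(CPM + 1), for the 38 tested members in order of replicate 4; grey lines join replicates 3 and 4. Most members lie below 0 in replicate 4 (purple circles), and Ccng2 and Cdkn1b at the right are the highest there and the lowest in replicate 3 (orange squares).

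The wider pathway was abundant in the same way. Of 26 CDK and cyclin relatives, 23 had at least 1 TPM in every library, led by the CDK subunit genes Cks1b and Cks2 (269 ± 2.84 and 266 ± 8.38 TPM) and by Ccni (157 ± 24.6 TPM), with Cdk18, Cdk14 and Ccnb3 below 1 TPM. All 10 E2F and DREAM partner genes passed that level, led by the histone-binding genes Rbbp7 and Rbbp4 (494 ± 39.5 and 119.5 ± 6.82 TPM) and the mitotic activator gene Mybl2 (85.6 ± 6.18 TPM). So did all 11 ubiquitin ligase genes, led by Cdc20, Skp1a and Fbxo5 (392 ± 39.9, 277 ± 13.5 and 129 ± 10.1 TPM). Of 13 checkpoint and mitotic entry genes 12 passed, with the mitotic kinase genes Plk1, Aurka and Aurkb at 242 ± 8.57, 170.5 ± 7.55 and 149 ± 3.21 TPM and Atrip below 1 TPM. Of these lists 58 genes were tested for spread, 0 were called, and 1 had an unadjusted p under 0.05. In replicate 4 the DREAM and ubiquitin ligase lists were at -0.10 and -0.12, near the G1/S and G2/M members, while CDK and cyclin relatives were at 0.00 and the checkpoint list at -0.01 (the shifts of these lists were computed after the members' values were seen).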

How the data were processed

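The deposited files give raw counts, 1 per pair of reads and gene. Per the file headers the authors obtained these counts by running featureCounts 1.4.6-p4 against the exons of GENCODE M13, keeping pairs with both mates aligned, strand option 2, without reads that map to several places or overlap several genes. The build is mm10 per the labels; the sources used here do not give the aligner's version. The labels call the assay total RNA, while the linked library protocol is named for poly(A) RNA.

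Symbols came from GENCODE release 21 (50376 of 50600 identifiers matched), promoter sequences from RefSeq (GRCm38.p6). TPM were computed here from counts and the exonic Length. Spread used edgeR 4.0.16 (filterByExpr, TMM, glmQLFit with an intercept, tested on simulated data), with DESeq2 1.42.0 as an alternative. All 43 members are named; of other lists, the 3 highest genes and those below 1 TPM. The rule for members uses names alone, but members and lists were chosen with earlier results of these data known, and 2 list names were respelled (Skp1a, Clspn) after the files were read. Transcript lengths as alternatives were added after seeing the data. Replicates carry no batch label, and the labels do not tie them to separate animals or cultures.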

Additional observations from a re-analysis of the deposited data

Results flagged for a closer look

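Cdkn3 in replicate 3 stood apart from the other 3 libraries, at 51.7 TPM against 63.0 to 64.9 TPM. Its gap to the nearest library was 0.859 of the whole range, past the critical value for 4 samples. It was 1 of 42 members so examined, where chance marks about 1 in 20 groups. It rests on 114 counts in the shallowest library.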

How the results depend on the processing

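The number of members at the threshold in every library was 38 under all 10 settings, among them thresholds of 5 TPM and of 1 CPM. No phase-list shift changed sign or left a fixed tolerance, which is not a measured spread, under the other settings run. The median member was 50.6 TPM with 200 bases taken off each length, 62.5 TPM without the low members, and 52.6 and 38.5 TPM with the longest and the median protein-coding transcript. Called members numbered 1 with no filter and 1 with DESeq2, against 0, in both cases Ccng2. With no length correction the share in the family was Ccnd2 66.3%, Ccne1 50.4%, Ccnb2 32.5%, Cdk4 53.1%, Cdk1 62.5%, Cdkn1a 84.2%, Cdkn2d 84.0%, Cdc25b 37.0%, E2f2 50.4%, E2f4 93.0%, E2f8 76.5% and Rb1 36.4%. With the longest transcript the share in the family was Ccnd2 39.7%, Ccne1 60.4%, Ccnb2 43.9%, Cdk4 86.4%, Cdk1 47.8%, Cdc25b 37.5%, E2f4 92.2%, E2f8 82.8% and Rb1 37.5%. With the median transcript the share in the family was Ccne1 70.1%, Ccnb2 40.2%, Cdk4 42.6%, Cdk1 75.5%, Cdkn1a 89.2%, Cdkn2d 88.1%, Cdc25b 33.9%, E2f2 43.5%, E2f4 92.2%, E2f8 74.4% and Rb1 37.2%. Without 50-base stretches shared with other genes the share in the family was Ccnb2 50.4%. With 200 bases taken off each length the share in the family was Cdk4 83.7% and Cdkn2d 90.4%. Of the pairs, Ccnd2 minus Ccnd3 turned to -0.60 and Cdk1 minus Cdk2 to -0.13 with the longest transcript, Ccnb1 minus Ccnb2 to 0.35 (longest), 0.57 (median) and 1.05 (CPM), Cdc25a minus Cdc25b to 0.27, 0.57 and 0.50 likewise, and Cdk4 minus Cdk6 to -0.43 with the median. Cdkn2a minus Cdkn2b ran from -0.16 to 0.041 with 1 replicate left out each time. Transcript lengths come from release 21 and hold incomplete models (697 bases for Cdk6), so they bound the order between genes and do not settle it. Under the length settings each change comes from the lengths alone, for TPM of single genes and their median from those of all genes. For the other settings the cause was not tested. Depth limits Cdkn1c, Ccnd1, Cdkn2a, Cdkn2b and Ccna1, with at most 29 counts each. No paired analysis was possible because there is 1 group.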

Other observations

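Quiescence and p53 genes, which the comparisons above do not cover, were also read by library, after the members' values were seen. Of 12 quiescence genes, 11 had at least 1 TPM in every library, led by Slfn2, Klf6 and Tcf7 at 513 ± 10.4, 338 ± 20.9 and 219.7 ± 2.45 TPM, with Klf2, a factor of resting T cells, at 0.599 TPM. The median of its 11 tested genes was 0.22 in replicate 4 and -0.16 in replicate 3 on log2(CPM + 1) relative to the other libraries, with 9 of 11 genes higher in replicate 4. The signs are those of Ccng2 and Cdkn1b. The p53 list, to which Cdkn1a and Ccng1 are related as targets, was at -0.12 in replicate 4 and -0.01 in replicate 3 over 16 genes, led by Bax, Gtse1 and Trp53 at 279 ± 27.1, 162 ± 12.8 and 154 ± 4.66 TPM, with Eda2r, Trp73 and Trp63 below 1 TPM.

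In the promoter windows, neighbouring CCAAT boxes of Ccnb1, Ccnb2, Cdk1 and E2f7 lay 32 or 33 bases apart, start to start. This spacing, looked for after the matches were seen, was found in 4 of 40 member windows (10%), 3 of 6 G2/M windows and 0.757% of all protein-coding windows. Among windows with at least 2 CCAAT boxes it was 36.4% of the members' 11 and 5.91% of 2724 protein-coding ones.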
